A study of Mus musculus with 5 samples.

Results

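The 10 genes described here are transcripts by which intercalated cells of the kidney collecting duct handle acid and base: Slc4a1, Slc26a4, Slc4a9, Foxi1, Rhcg and the proton pump subunit genes Atp6v1b1, Atp6v1c2, Atp6v1g3, Atp6v0a4 and Atp6v0d2. They were chosen by symbol, and each matched 1 row of the 23997 rows in the deposited gene table and passed the filter on low values, a mean FPKM of at least 1. Whole kidneys of mice aged 8 weeks were profiled by RNA-seq in 5 libraries, 3 of uninduced controls (control 0, 1 and 2) and 2 with the genotype label Pkd1 knockout (knockout 0 and 1). Sample titles call the knockouts SKO, and the series' design text calls them PkdTKO. The sources used here do not give strain, sex, the inducing agent, the driver of the deletion or any agent given to the controls. They also do not say whether libraries are from separate animals, and p-values therefore reflect spread among these samples alone, possibly a technical one. The series asked about metalloproteinases and the remodelling of the tubule basement membrane as tubules widen into cysts, which follow loss of Pkd1, the gene of polycystin-1.

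Intercalated cells are the acid-base cells of the connecting tubule and collecting duct, where they lie among the principal cells that reabsorb sodium and water. Type A cells secrete protons into the urine through an apical V-ATPase and return bicarbonate to the blood through the basolateral exchanger AE1, and type B cells secrete bicarbonate through the apical exchanger pendrin. The V-ATPase joins a cytosolic V1 sector, which hydrolyses ATP, to a membrane V0 sector, which carries the protons, and intercalated cells use their own forms of several subunits in place of those found in all cells. In mice the forkhead transcription factor Foxi1 is needed for these cells to form and activates several of these genes.

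Levels are FPKM, that is, fragments scaled by transcript length and library size, and differences were fitted on log2(FPKM + 1). Relative sequencing depth, read from the steps of low values, was 1.09, 0.671, 0.568 and 1.33 times that of control 0 in control 1, control 2, knockout 0 and knockout 1, and total depth is unknown. Pkd1 itself stood at 3.22, 3.51 and 3.49 FPKM among controls, against 2.72 (knockout 0) and 3.60 (knockout 1), so that its level over the whole gene did not separate the groups. Xist, a marker of female RNA, was between 0.0222 and 0.0275 among controls, against 30.8 (knockout 0) and 80.3 (knockout 1). Ddx3y, a Y-linked gene, was at 18.1 ± 0.423 (SD, n = 3), 7.30 and 0.00194, so knockout 0 held RNA of both kinds. Whether that library pools mice of both sexes or carries a wrong label was not tested, and the doubt applies to every value and call given for knockout 0. The sex of the RNA and the genotype label cannot be told apart. Over all genes 802 passed, 345 higher and 457 lower, and with every library scaled to the same total (TPM) the split was 441 higher and 255 lower.

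In knockout 0 all 10 genes were at the lowest level of the 5 libraries, whereas in knockout 1 they lay closer to the controls. Over all tested rows knockout 0 was the lowest library in 31.2%. Relative to the control mean the levels in knockout 0 ran from 27.4% for Slc4a1 to 75.7% for Rhcg, with Atp6v0a4 above that, and in knockout 1 from 69.1% for Slc4a1 to 94.4% for Slc4a9. In the test of both knockout libraries 0 of 10 genes had an adjusted p under 0.05 (limma, with Benjamini-Hochberg adjustment over 12640 rows), where 3.62% of all rows were called lower and 2.73% higher, 6.34% in all. At an unadjusted p under 0.05, 5 of the 10 were lower, against 16.6% of all rows. That count was 2 after rescaling to TPM (1265 of the 12640 rows), 2 without control 1 (13.8%), control 2 (10.1%) or knockout 0 (17.4%), 3 without control 0 (11.5%) and 9 without knockout 1 (20.6%). In a bulk sample, fewer intercalated cells and less RNA per intercalated cell cannot be told apart.

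Sequence from the promoters of 3 proton pump genes is shown because Foxi1 is known in mice to activate Atp6v1b1 and Atp6v0a4, and because Atp6v1g3 belongs to the same enzyme. Each line holds 250 bases before and 50 bases after the RefSeq gene start, read 5′ to 3′ in the direction of the gene, in build GRCm38.p6. Capitals mark every TGTTT, the core of the forkhead motif, on this strand, or its reverse complement AAACA.
Atp6v1b1, chr6:83742767-83743066, plus strand: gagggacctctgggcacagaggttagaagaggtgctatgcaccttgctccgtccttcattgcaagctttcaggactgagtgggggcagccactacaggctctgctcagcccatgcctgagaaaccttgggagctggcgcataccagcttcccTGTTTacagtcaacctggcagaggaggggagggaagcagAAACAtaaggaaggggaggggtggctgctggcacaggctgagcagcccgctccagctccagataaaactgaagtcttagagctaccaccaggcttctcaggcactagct
Atp6v1g3, chr1:138273488-138273787, plus strand: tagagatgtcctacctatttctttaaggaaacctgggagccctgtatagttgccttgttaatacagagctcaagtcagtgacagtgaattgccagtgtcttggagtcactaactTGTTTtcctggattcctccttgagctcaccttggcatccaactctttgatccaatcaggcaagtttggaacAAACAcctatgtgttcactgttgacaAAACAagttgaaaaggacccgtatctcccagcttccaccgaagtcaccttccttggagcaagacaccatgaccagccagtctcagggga
Atp6v0a4, chr6:38124537-38124836, minus strand: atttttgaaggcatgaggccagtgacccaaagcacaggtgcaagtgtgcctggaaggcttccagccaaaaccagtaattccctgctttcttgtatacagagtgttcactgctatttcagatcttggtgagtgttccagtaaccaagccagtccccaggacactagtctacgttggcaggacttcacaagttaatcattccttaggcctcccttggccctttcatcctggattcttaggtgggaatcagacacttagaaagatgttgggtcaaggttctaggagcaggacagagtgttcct
The Atp6v1b1 window held the core 98 bases before the gene start, within the longer TGTTTAC, and on the other strand 59 bases before the start. The Atp6v1g3 window held it 136 bases before the start and on the other strand 65 and 39 bases before the start, and the Atp6v0a4 window held none. RefSeq promoters were found for 7 of the 10 genes, and 4 of these 7 (Atp6v1g3, Atp6v1b1, Foxi1 and Slc26a4) held TGTTT on either strand, against 50.5% of 32851 promoter windows of the same length. TGTTTAC, which contains TGTTT, occurred in 1 of the 7 and in 3.65% of all windows. These matches describe letters only.

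Foxi1, the transcription factor, varied most among the controls relative to its mean. Its FPKM was 14.7, 29.2 and 19.4 among controls, against 12.2 (knockout 0) and 15.9 (knockout 1). Knockout 0 lay below every control, and knockout 1 lay inside the control range. The fitted log2 difference between the groups was -0.51 (SE 0.286, 95% interval -1.23 to 0.20, limma adjusted p = 0.291). Foxi1 (ENSMUSG00000047861.2) occupies 34204338 to 34208089 of chromosome 11 on the minus strand in build mm10.

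Slc4a1 encodes AE1, or band 3, the basolateral chloride-bicarbonate exchanger of type A cells, and in another transcript form the anion exchanger of red blood cells. It had the lowest level of the 10 genes and the largest difference. Its FPKM was 14.7, 9.89 and 13.7 among controls, against 3.50 (knockout 0) and 8.82 (knockout 1), and the groups did not overlap. The log2 difference was -1.03 (SE 0.354, 95% interval -1.92 to -0.14, limma adjusted p = 0.133). An exact permutation test gave 0.10, which is as low as 3 against 2 libraries can go. The gene-level value does not separate the kidney form from the erythroid form. Of 8 erythroid markers 7 had a row, with a summed FPKM of 19.7 to 45.8 among controls, against 132 (knockout 0) and 8.57 (knockout 1). In knockout 0 none of the 7 lay below the controls and 4 lay above them, whereas in knockout 1 5 of the 7 lay below the controls, and their part in the Slc4a1 level there was not tested. Slc4a1 (ENSMUSG00000006574.15) lies on chromosome 11 from 102348824 to 102366203, minus strand.

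Slc26a4 encodes pendrin, the apical chloride-bicarbonate exchanger of type B cells. It had an FPKM of 31.4, 42.7 and 35.8 among controls, against 18.4 (knockout 0) and 29.5 (knockout 1). Both knockout libraries lay below every control, knockout 1 by a narrow margin, and the log2 difference was -0.62 (SE 0.225, 95% interval -1.18 to -0.05, limma adjusted p = 0.148). Slc4a9, which encodes AE4, a basolateral exchanger of type B cells, was at nearly the same level, with an FPKM of 30.7, 42.4 and 36.2 among controls, against 22.2 (knockout 0) and 34.4 (knockout 1). Knockout 1 stood within the control range, and the log2 difference was -0.37 (95% interval -0.92 to 0.18, limma adjusted p = 0.312). Slc26a4 (ENSMUSG00000020651.8) lies on chromosome 12 from 31519827 to 31559969, minus strand, and Slc4a9 (ENSMUSG00000024485.16) on chromosome 18 from 36528147 to 36556273, plus strand.

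Ratios of the exchangers within a library do not depend on how libraries are scaled. FPKM of Slc26a4 over that of Slc4a9 was 1.02, 1.01 and 0.987 among controls, against 0.828 (knockout 0) and 0.857 (knockout 1). The pendrin gene was thus lower against its type B partner in both knockout libraries than in every control, and the spread of this ratio among the controls was small (SD 0.0187, n = 3). The share of all gene pairs that separate in this way was not computed, and 48.2% of single rows had no overlap between the groups. The ratio of Slc4a1, of type A cells, to Slc4a9, of type B cells, was 0.480, 0.233 and 0.377 among controls, against 0.157 (knockout 0) and 0.256 (knockout 1), so that knockout 1 fell within the control range. Control 1 had the highest level of the 3 controls in 9 of the 10 genes, against 36.8% of all tested rows, and the exception was Slc4a1, which was lowest there.

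Rhcg, an ammonia transporter of intercalated cells that principal cells also make, lay closer to the controls than most of the 10. Its FPKM was 72.0, 85.6 and 75.1 among controls, against 58.7 (knockout 0) and 69.2 (knockout 1). The groups did not overlap, by a narrow margin in knockout 1, and the log2 difference was -0.28 (SE 0.115, 95% interval -0.56 to 0.01, limma adjusted p = 0.185). Rhcg (ENSMUSG00000030549.6) lies on chromosome 7 from 79593363 to 79617657, minus strand.

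**Figure D1:**
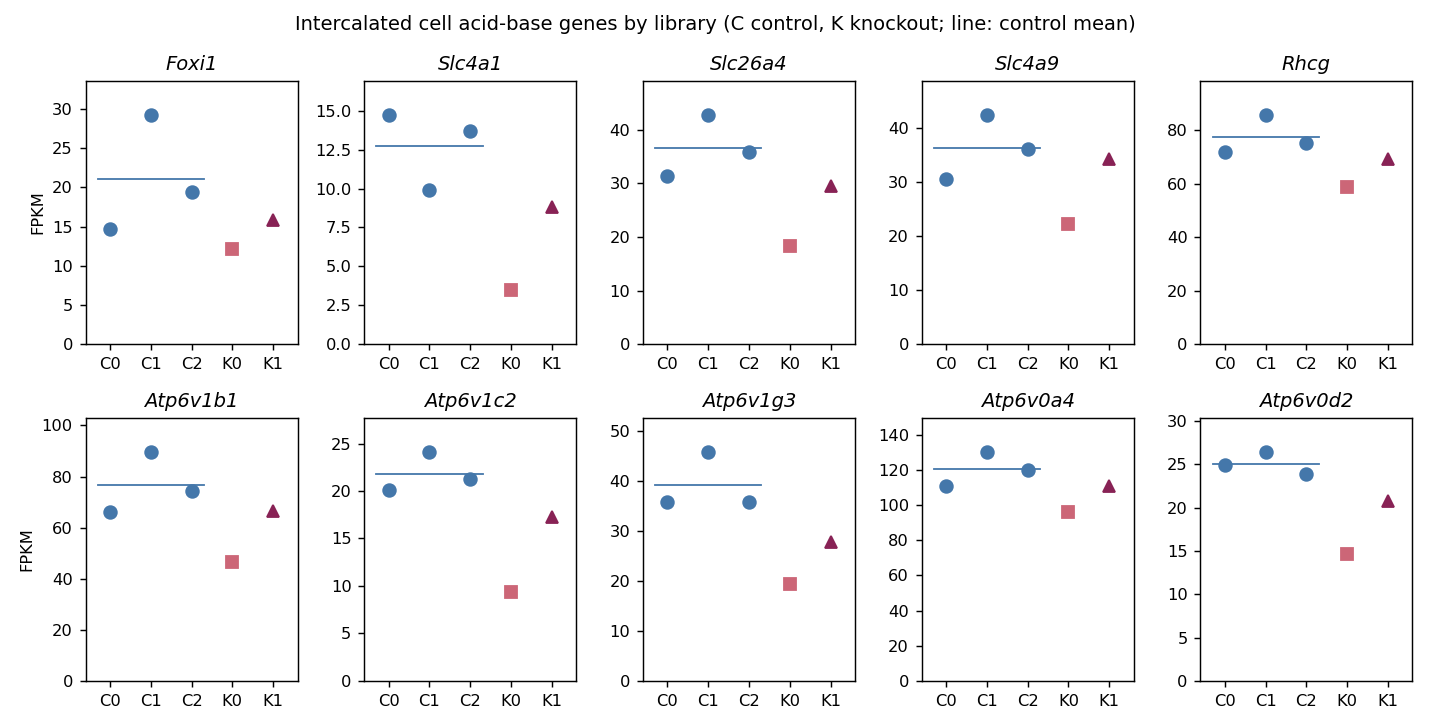
FPKM of each of the 10 genes (vertical axes, linear, from 0) in the 3 controls (circles), knockout 0 (square) and knockout 1 (triangle), with a line at the control mean. Knockout 0 is the lowest library in all 10 panels, and knockout 1 lies inside the control range for Foxi1, Slc4a9 and Atp6v1b1.

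Of the V1 subunits, Atp6v1b1 encodes the B1 form of the nucleotide-binding B subunit, which is mutated in human distal renal tubular acidosis with deafness. Its FPKM was 66.3, 89.6 and 74.2 among controls, against 46.7 (knockout 0) and 66.7 (knockout 1). Knockout 0 lay below every control and knockout 1 at the lower end of them, with a log2 difference of -0.44 (SE 0.195, 95% interval -0.93 to 0.05, limma adjusted p = 0.204). Atp6v1g3, the G3 form of the stalk subunit G, came closest to the threshold, with an FPKM of 35.9, 45.8 and 35.9 among controls, against 19.4 (knockout 0) and 27.8 (knockout 1). The groups were apart, and the log2 difference was -0.72 (SE 0.186, 95% interval -1.19 to -0.25, limma adjusted p = 0.0811). Atp6v1c2, a form of the C subunit that joins V1 to V0, had 20.1, 24.1 and 21.3 among controls, against 9.32 (knockout 0) and 17.3 (knockout 1). It too was below every control in both knockout libraries (log2 difference -0.73, SE 0.248, 95% interval -1.35 to -0.11, limma adjusted p = 0.132). Atp6v1c2 shares exon bases with Pdia6 on the opposite strand, and the strandedness of the counting is not given in the sources used here, so its level is uncertain.

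Of the V0 subunits, Atp6v0a4 encodes the a4 form of the large membrane subunit, also mutated in human distal renal tubular acidosis, and was the most abundant of the 10 genes. Its FPKM was 110.7, 130.1 and 120.1 among controls, against 96.2 (knockout 0) and 110.6 (knockout 1), which was barely under the lowest control. The log2 difference, -0.22 (SE 0.107, 95% interval -0.49 to 0.05, limma adjusted p = 0.243), was the smallest of the 10 in size. Its exons overlap those of Tmem213 on the opposite strand and of D630045J12Rik on the same strand, which makes the level uncertain. Atp6v0d2, the d2 form of a subunit that links the sectors and which osteoclasts and macrophages also make, varied least among the controls, with an FPKM of 24.9, 26.4 and 23.9. It stood at 14.6 in knockout 0 and 20.7 in knockout 1, both below every control (log2 difference -0.50, SE 0.150, 95% interval -0.87 to -0.12, limma adjusted p = 0.107).

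The pump genes lie on mm10 chromosome 6 from 83742990 to 83758855, plus strand (Atp6v1b1, ENSMUSG00000006269.7), and from 38048483 to 38124586, minus strand (Atp6v0a4, ENSMUSG00000038600.12). Atp6v1g3 (ENSMUSG00000026394.5) lies on chromosome 1 from 138273738 to 138289462, plus strand. Atp6v1c2 (ENSMUSG00000020566.19) lies on chromosome 12 from 17284721 to 17329359 and Atp6v0d2 (ENSMUSG00000028238.6) on chromosome 4 from 19876841 to 19922605, both on the minus strand.

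By mean FPKM among controls, a level per length of transcript, the order was Atp6v0a4 (120.3), Rhcg (77.6), Atp6v1b1 (76.7), Atp6v1g3 (39.2), Slc26a4 (36.6), Slc4a9 (36.5), Atp6v0d2 (25.1), Atp6v1c2 (21.8), Foxi1 (21.1) and Slc4a1 (12.8). The control ranges overlapped between Rhcg and Atp6v1b1, among Atp6v1g3, Slc26a4 and Slc4a9, and along the run from Atp6v0d2 to Foxi1, so these neighbours were not separated. The first 3 and the last places were the same in both knockout libraries. Slc4a9 was in place 6 in the controls and in place 4 in each knockout library, ahead of Atp6v1g3 and Slc26a4.

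All 10 genes were below every control in knockout 0, against 43.9% of all tested rows, and 7 of the 10 in knockout 1, against 38.5%. The groups did not overlap in those 7 genes, where 26.3% of all rows had both knockout libraries below every control and 48.2% had no overlap in either direction. After rescaling to TPM the 10 in knockout 0 remained, against 39.2% of all rows, but in knockout 1 the count was 4, against 23.8%. The median log2 difference of the 10 genes was -0.51 over both knockout libraries, -0.71 in knockout 0 and -0.28 in knockout 1, and the medians over all tested rows were -0.02, -0.04 and 0.00. The sign of all 10 fitted differences was negative. The 10 genes share their libraries and, in part, their cells, so they are not independent.

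Knockout 0 and knockout 1 were then each compared with the same 3 controls, which assumes that a lone library varies like the controls, and the comparisons share those controls. Against knockout 0, 5 of the 10 genes were called lower (Slc4a1, Slc26a4, Atp6v1c2, Atp6v1g3 and Atp6v0d2) and 0 higher by limma, where 9.09% of all rows were called lower and 11.5% higher, 20.6% in all. At an unadjusted p under 0.05, 9 of the 10 were lower, against 20.6% of all rows. Atp6v1c2 had a log2 difference of -1.14 (95% interval -1.46 to -0.83, limma adjusted p = 0.00883) and Atp6v0d2 of -0.74 (-0.96 to -0.51, adjusted p = 0.0113). Slc4a1 had -1.60 (-2.21 to -0.98, adjusted p = 0.0185), Atp6v1g3 -0.97 (-1.42 to -0.51, adjusted p = 0.0282) and Slc26a4 -0.94 (-1.43 to -0.46, adjusted p = 0.0340). Foxi1 was the least separated in this comparison (-0.69, 95% interval -1.70 to 0.32, adjusted p = 0.247). Without control 2 the count was 0 of 10, where 0.340% of all rows were called lower. Without control 0 or control 1 it was 7, where 5.94% and 11.9% of all rows were. Over the fit to knockout 0 as deposited and 6 alternatives to it, the limma adjusted p ranged from 0.00288 to 0.0759 for Atp6v1c2, from 0.00511 to 0.0749 for Atp6v0d2, from 0.00384 to 0.110 for Slc4a1, from 0.00827 to 0.116 for Atp6v1g3 and from 0.0162 to 0.146 for Slc26a4, with the highest value of each without control 2.

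Against knockout 1, 0 of the 10 genes passed by limma, where 4.25% of all rows were called lower and 4.09% higher, 8.34% in all, and 2 were lower at an unadjusted p under 0.05, against 17.4%. These were Atp6v1g3 (log2 difference -0.47, 95% interval -0.93 to -0.02, adjusted p = 0.140) and Atp6v0d2 (-0.26, 95% interval -0.49 to -0.03, adjusted p = 0.119). Slc4a9 had the smallest difference, -0.07 (95% interval -0.58 to 0.44). Whether knockout 0 and knockout 1 differ from each other was not tested.

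**Figure D2:**
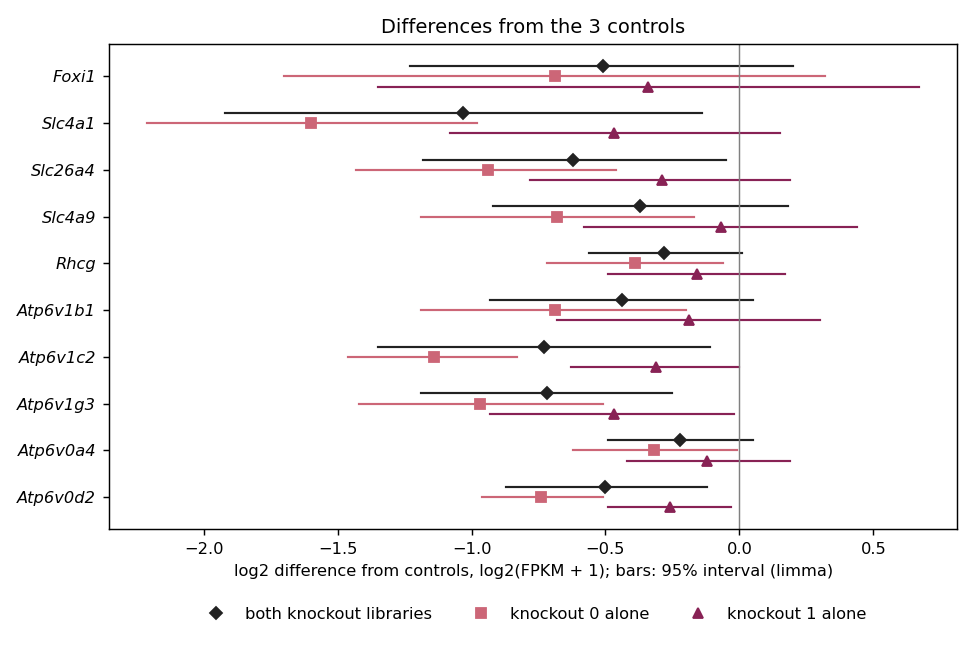
Fitted log2 difference from the 3 controls on log2(FPKM + 1) for each gene, for both knockout libraries together (diamonds), knockout 0 alone (squares) and knockout 1 alone (triangles), with 95% limma intervals as bars. Every point lies left of 0, from -1.60 for Slc4a1 in knockout 0 to -0.07 for Slc4a9 in knockout 1, and in each gene knockout 0 lies farther left than knockout 1.

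For 5 subunits the pump gene of intercalated cells can be set against the paralog that is made more widely, as a share of the summed FPKM of the pair, a level per length that does not depend on the scaling of a library. In the controls the intercalated cell form made up 87.9% ± 1.22 (SD, n = 3) of the a pair (Atp6v0a4 with Atp6v0a1) and 31.4% ± 4.13 of the B pair (Atp6v1b1 with Atp6v1b2). It made up 26.7% ± 1.85 of the C pair (Atp6v1c2 with Atp6v1c1), 20.8% ± 0.442 of the d pair (Atp6v0d2 with Atp6v0d1) and 12.5% ± 1.75 of the G pair (Atp6v1g3 with Atp6v1g1). The a pair leaves out 2 other a forms, Atp6v0a2 and Tcirg1, at means of 21.3 and 10.7 FPKM among controls, so 87.9% is not the share of all a forms. Bulk levels do not show which cells made either form of a pair. In knockout 0 all 5 shares were below every control. The FPKM of these 5 genes was itself below every control there, so the shares are not a separate result. How many other gene pairs separate in this way was not computed.

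The largest gap was that of the C pair, at 24.7%, 28.3% and 27.0% among controls, 11.2% in knockout 0 and 22.4% in knockout 1. The d pair stood at 21.2%, 20.9% and 20.3% in the controls and 14.8% in knockout 0, but at 21.2% in knockout 1, where Atp6v0d1 had an FPKM of 76.9 against a control mean of 95.5. The G pair was at 12.3%, 14.4% and 10.9% among controls, 6.69% in knockout 0 and 10.1% in knockout 1. In knockout 1 the a, C and G shares were below every control, and the B and d shares were not. The paralogs themselves did not pass in either direction. Atp6v1b2 had a mean FPKM of 167 among controls, against 166 (knockout 0) and 148 (knockout 1), and Atp6v1c1 60.1, 73.9 and 60.1.

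**Figure D3:**
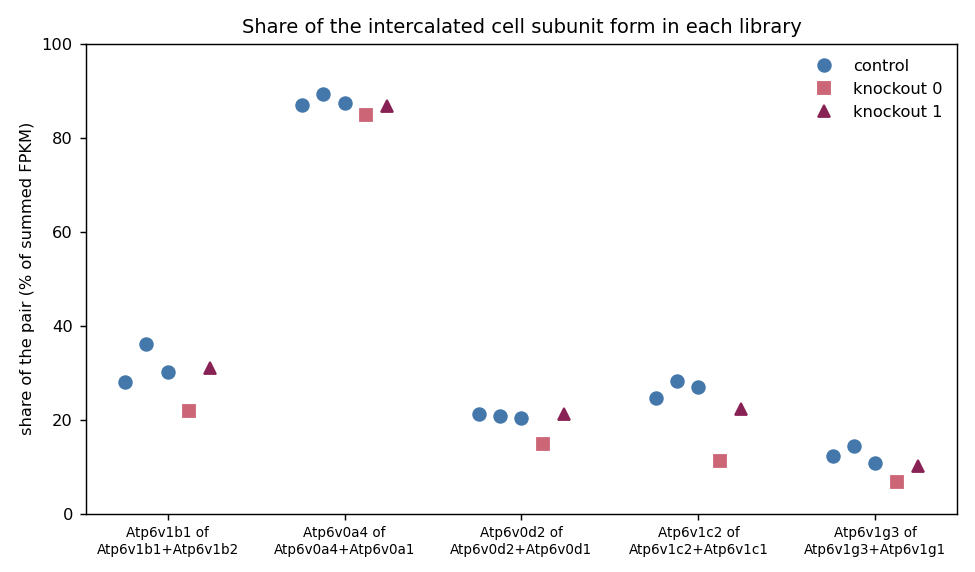
Share of the intercalated cell form in the summed FPKM of each subunit pair (percent, axis from 0 to 100), with each control as a circle, knockout 0 as a square and knockout 1 as a triangle. Knockout 0 is below the controls in all 5 pairs, from 6.69% of the G pair to 84.9% of the a pair, and knockout 1 is inside the control range for the B pair, at 31.1%.

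The other 20 V-ATPase subunit and accessory genes went in both directions, and 13 of the 19 tested had a negative fitted difference. Below every control were 9 of the 19 in knockout 0 and 13 in knockout 1, against 43.9% and 38.5% of all rows. The share in knockout 1, 68.4%, was close to the 70.0% of the 10 acid-base genes. Both knockout libraries were below every control in 8 and above in 1, against 26.3% and 21.9% of all rows. By limma 1 of the 19 tested rose, 1 fell and the other 17 missed the threshold, where 2.73% of all rows were called higher and 3.62% lower. Atp6v0e2, a small membrane subunit, rose from 31.7 ± 1.01 (SD, n = 3) to 41.2 and 41.0 (adjusted p = 0.0417), and Atp6v1d, a subunit of the rotor, fell from 110.9 ± 3.91 to 86.3 and 85.0 (adjusted p = 0.0471). Atp6v0e2 passed in 10 and Atp6v1d in 6 of 15 alternatives, and neither passed without control 0, 1 or 2 or without knockout 0 (adjusted p up to 0.207 and 0.200). Under a replicate block both calls were lost as well (adjusted p = 0.302 and 0.297). Atp6v1e1, a stalk subunit, was at 304.1 ± 8.57 among controls, then 238.2 (knockout 0) and 228.2 (knockout 1), and Atp6v1a, the catalytic subunit, at 151.5 ± 8.21, 128.1 and 127.5. The median log2 difference of the 19 tested genes was -0.02 in knockout 0 and -0.18 in knockout 1. Over both libraries it was -0.13, and 0.00 after quantile normalization.

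Of 15 other genes known from intercalated cells 0 passed over both libraries by limma, where 3.62% of all rows were called lower and 2.73% higher. At an unadjusted p under 0.05, 5 were lower, against 16.6% of all rows. Rhbg, a basolateral ammonia transporter, was at 38.8 ± 5.12 (SD, n = 3) among controls, against 16.5 (knockout 0) and 28.8 (knockout 1), and Aqp6, a channel of type A cell vesicles, at 28.9 ± 4.16, 11.7 and 26.0. Oxgr1, the receptor by which type B cells sense α-ketoglutarate, was at 13.7 ± 1.21, 6.89 and 11.9, and Hepacam2 at 10.8 ± 1.28, 5.57 and 9.22. With Tmem213 these were the 5, and Tmem213 is the gene that overlaps Atp6v0a4. Car15, a membrane carbonic anhydrase, had 83.3, 140.2 and 94.7 among controls, against 50.4 (knockout 0) and 61.7 (knockout 1), and P2ry14, a receptor for UDP sugars, had 3.07, 3.15 and 2.78, then 2.39 and 2.22. Car2, the cytosolic carbonic anhydrase, had a mean of 326.4 ± 46.0 among controls, 357.5 in knockout 0 and 372.9 in knockout 1, and Slc4a8, a sodium-driven exchanger of type B cells, was at 101% of its control mean in knockout 0 and 147% in knockout 1. Neither was lower in knockout 0. There the median of the 15 was -0.61, with 13 below every control, against 43.9% of all rows. In knockout 1 it was -0.14, with 5 below and 5 above every control, where 38.5% of all rows were below and 38.4% above, so these counts were near the background.

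Principal cells share the collecting duct with intercalated cells. Of 10 principal cell genes 1 fell, 0 rose and 9 did not pass over both libraries, where 3.62% of all rows were called lower and 2.73% higher. Fxyd4, a regulator of the sodium pump, fell from 96.9 ± 0.251 (SD, n = 3) to 77.6 and 74.2 (limma adjusted p = 0.0470), a call kept in 7 of 15 alternatives and lost after rescaling to TPM (adjusted p = 0.0749), without control 0, 1 or 2 (up to 0.219) and under a replicate block (0.315). Against knockout 0 alone the log2 difference was -0.71 for Aqp3, -0.38 for Avpr2 and -0.32 for Fxyd4. Against knockout 1 alone it was -0.17, -0.13 and -0.38. Below every control were 7 of the 10 in knockout 0 and 4 in knockout 1, against 43.9% and 38.5% of all rows. Aqp2, the vasopressin-regulated water channel, was at 282.7, 334.4 and 337.1 among controls, against 248.2 (knockout 0) and 351.4 (knockout 1), and Aqp3, a basolateral water channel, at 96.8 ± 9.04, 58.4 and 85.7. Elf5, a transcription factor, was at 4.17 ± 0.685, 2.73 and 2.95, Avpr2, the vasopressin receptor, at 21.8 ± 0.682, 16.5 and 19.8, and Aqp4 at 21.9 ± 5.92, 17.4 and 33.4. The median log2 difference of the 10 principal cell genes was -0.30 in knockout 0 and 0.06 in knockout 1.

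Divided by the summed FPKM of the principal cell genes, 7 of the 10 acid-base genes were below every control in both knockout libraries, against 8.40% of all tested rows. This scaling was chosen after seeing the data. The principal cell sum was itself lower in knockout 0, at 635, against 724 to 827 among controls and 806 in knockout 1. In knockout 0, 8 of the 10 genes were below every control, against 11.3% of all rows, a share that was 43.9% as deposited. In knockout 1 it was 9 of the 10, against 38.5%. The 8.40% is thus not to be read against the 26.3% of the values as deposited. On this scale Atp6v1c2 stood at 2.78, 2.91 and 2.61 per 100 FPKM of principal cell genes among controls, against 1.47 (knockout 0) and 2.15 (knockout 1). Atp6v1b1 stood at 9.16, 10.8 and 9.11 among controls, against 7.35 (knockout 0) and 8.28 (knockout 1). The 3 genes that overlapped were Slc4a9, Atp6v0a4 and Rhcg, and of these Atp6v0a4 and Rhcg lay within the control range in knockout 0.

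**Figure D4:**
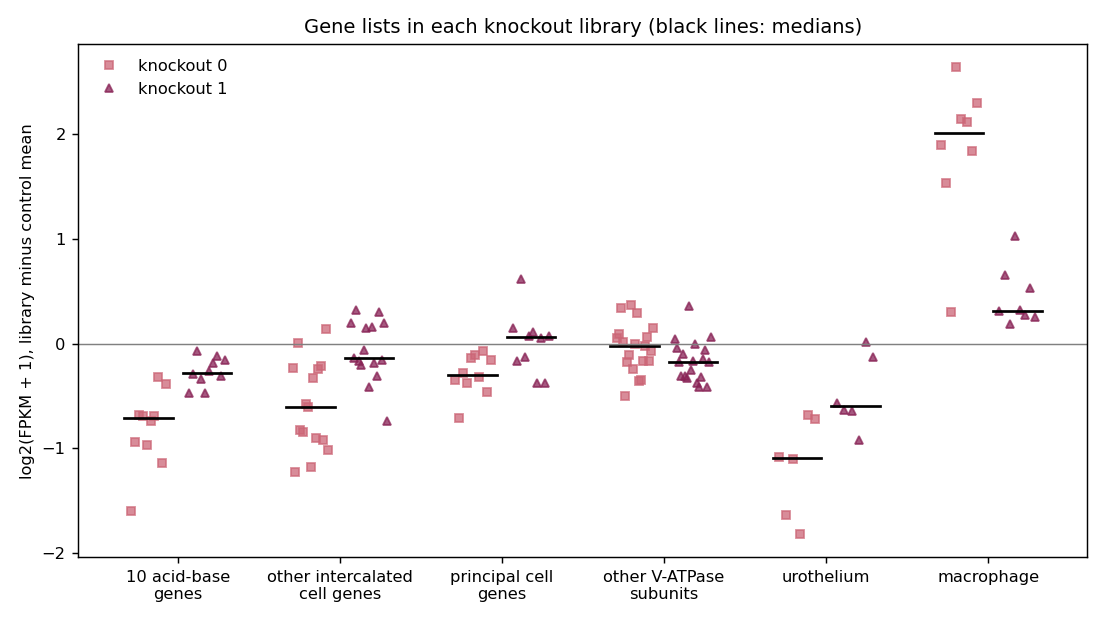
Difference of each tested gene from its control mean on log2(FPKM + 1) in knockout 0 (squares) and knockout 1 (triangles), with a black line at each list's median. The 10 acid-base genes have medians of -0.71 and -0.28, principal cell genes -0.30 and 0.06, and macrophage genes 2.01 and 0.31.

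Markers of other cells differed between the same libraries, and their part in the levels of the 10 genes was not tested. The 8 macrophage markers were all above every control in both knockout libraries, against 21.9% of all rows, with a summed FPKM of 262 to 301 among controls, against 1316 (knockout 0) and 351 (knockout 1). Most of that sum was Cd74, at a mean of 200.5 among controls, 992.6 in knockout 0 and 238.4 in knockout 1. Csf1r was at 123% and 115% of its control mean. Atp6v0d2, which macrophages can make, was below every control in both knockout libraries. The 6 osteoclast markers summed to 44.6 to 50.7 among controls, against 62.7 (knockout 0) and 53.3 (knockout 1). All 6 urothelium markers were below every control in knockout 0 and 4 in knockout 1, with a summed FPKM of 18.5 to 25.4 in the controls and 5.81 in knockout 0, and a sum between them in knockout 1. The 3 markers of the distal convoluted tubule summed to 192 to 213, 136 and 252, and those of the thick ascending limb, without Umod, to 446 to 606, 273 and 515. In knockout 1 each of these 2 lists had 1 marker above and 1 below every control. The 4 proximal tubule markers with a value summed to 516 to 533, 479 and 441, but they did not move together. In knockout 0, 2 of the 4 were below every control and 1 above, and in knockout 1, 1 was below and 2 above. Slc22a6 had a mean of 293.1 among controls, against 245.6 (knockout 0) and 164.7 (knockout 1), and Cubn had 39.8, 50.9 and 61.1. Slc34a1 and Lrp2 were listed at 0 in every library and Umod at 0 in the 3 controls, and no other marker was at 0. None of the 10 acid-base genes was listed at 0 in any library.

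The genes whose pattern over the 5 libraries lay nearest to the median profile of the 10 genes were Adck3, Dnase1l2, Cox6c, Tet2 and Tmem88b. Likeness was the root mean square difference of log2(FPKM + 1), each gene less its own control mean, and it was 0.0399 for Adck3 and 0.0630 for Tmem88b. Of the 10 genes themselves Atp6v1b1 was nearest to this profile, at 0.0585, and Slc4a1 farthest, at 0.489. Adck3 had an FPKM of 41.7, 50.1 and 43.2 among controls, against 26.9 (knockout 0) and 39.1 (knockout 1).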

How the data were processed

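Whole-kidney RNA of 3 control and 2 knockout libraries was analysed from a table of FPKM that the authors deposited, 1 column to a library. Per the labels' protocols, RNA was extracted with TRIzol and libraries were made with an Illumina mRNA-seq kit. Per the submitters' processing notes, bcl2fastq and build mm10 were used, and the sources used here do not give the aligner, FPKM program, annotation or strandedness. All value columns were mapped to a library.

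FPKM are not counts, so limma 3.58.1 (in R 4.3.3; lmFit, then eBayes with its trend option; two-sided) was fitted to log2(FPKM + 1) of 12640 rows, those whose mean FPKM was 1 or more. P-values were adjusted by Benjamini-Hochberg over all these rows, with a threshold of 0.05. Folds on this scale understate the change of low genes. The fit was tested on simulated data. Single genes also had an exact two-sided permutation test, which cannot go below 0.1 here. Depth was compared through the commonest ratio between libraries among low values, which move in steps of 1 read.

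Groups follow the genotype label and replicate numbers the titles. The members and lists were chosen with earlier results of these data known. All 10 genes were named, then of the other V-ATPase genes the 5 paralogs and up to 4 by adjusted p, of the other intercalated and principal cell lists up to 6 by adjusted p, with Aqp2, and the 5 genes nearest in pattern. Tmem213, Car2, Slc4a8 and Aqp6 (at a tied adjusted p) were named after their values were seen, and Pkd1, Xist and Ddx3y as checks. Ahsp had no row, and Adgrf5, Adgre1 and Epb42 were matched by RefSeq synonyms. Positions are from GENCODE M21 on mm10, in which all 10 symbols occur once, and promoters from RefSeq. Python 3.11.15, numpy 2.4.6, pandas 2.3.3 and matplotlib 3.10.9 were used. Alternatives were another pseudocount (0.1), no filter or a minimum mean FPKM of 5, TPM, median-of-ratios and quantile scaling, other variance models, the replicate number as a block, removal of the 87 tested rows with a library listed at 0, and each library left out.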

Additional observations from a re-analysis of the deposited data

How the results depend on the processing

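The sign of all 10 fitted differences was negative under every alternative listed above. Signs were not counted in the alternatives added after seeing the data. None of the 10 genes passed under any listed alternative except without knockout 1, the comparison with knockout 0 alone described above. None was called higher. Where both knockout libraries were kept, 3 (replicate block) to 543 (minimum mean FPKM of 5) of all rows were called lower. Over the listed alternatives the median log2 difference of the 10 ranged from -0.71 (without knockout 1) to -0.28 (without knockout 0). Over all genes the count of 802 was 247 with no filter and 28 when the replicate number was a block (25 higher, 3 lower), and it ranged from 36 to 2599 over the left-out libraries (37, 155 and 36 without control 0, 1 and 2, 1054 without knockout 0, 2599 without knockout 1). With that block 0 of the 10 genes passed. The numbers were not shown to pair the samples, with a correlation of deviations across genes of 0.0863 for the libraries numbered 0 and 0.00236 for those numbered 1.

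In alternatives added after seeing the data, the 5 calls against knockout 0 alone were 5 on the TPM scale (922 of all rows called lower), 5 on the quantile scale (1649 rows), 7 after removal of genes listed at 0 (1433 rows), and 0 to 7 over the left-out controls (43 to 1507 rows), beside 1149 rows as deposited. Against knockout 1 alone the count was 0 to 1 over the left-out controls, the 1 being Slc4a1 without control 1 (788 of all rows called lower). At an unadjusted p under 0.05 the count of 5 over both knockouts was also 2 with no filter (10.2% of all rows) and 7 with the block (8.88%). After rescaling to TPM, knockout 1 was below every control in 4 of the 10 genes, against 23.8% of all rows. The groups did not overlap in 4, where 17.3% of all rows had both knockout libraries below every control. The cause was not tested. Unknown total depth means that no counting error can be given for any FPKM.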
